A study of Mus musculus with 18 samples.

Results

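The transcriptional effects of CYC065 were examined in polyploid lung cancer cells. The members were the 6 columns of counts whose titles place them in the sorted 4N population, 3 from vehicle-treated and 3 from CYC065-treated cells, of 18 columns and 6 groups in the series. ED1SQ4 is a murine lung cancer line derived from a tumor of a cyclin E-overexpressing transgenic mouse, so vehicle and treated cells alike carried that transgene. Cells received vehicle or 0.5 μM of CYC065, an inhibitor of CDK2 and CDK9, for 72 hours. They were stained with a DNA dye, and populations called diploid (2N) and polyploid (4N) were sorted on DNA content, while unsorted cells were profiled beside them. A gate on DNA content also admits diploid cells that have replicated and not yet divided, so 4N is used here only as the name of the gate.

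Each group rested on 1 library. Among genes counted in whole reads, the 3 columns of a 4N group varied no more than sampling allows, with a chi-square per degree of freedom of 1.01 in vehicle and 1.00 in CYC065-treated cells, and the column labels name parts of one sequenced sample. The 3 columns were therefore summed and counted as 1 sample, giving about 60029100 counts in vehicle 4N and 62795500 in CYC065 4N cells. The titles call the columns replicates 1 to 3, and whether separate cultures were grown was not settled. Counted this way, the comparison had no replicate check, and no P value is reported. Intervals in parentheses are exact 95% intervals for counting error only, and they say nothing of how much another culture would have differed. Genes with fractional counts have reads divided among similar genes. Among them the columns varied more than sampling allows, with a chi-square per degree of freedom of 8.07 in vehicle and 6.74 in CYC065-treated cells. The intervals of such genes do not cover this added variation. In bulk RNA, fewer cells of a kind and less RNA per cell cannot be told apart.

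CDK2, with cyclins E and A, drives cells into and through DNA synthesis and shares substrates with CDK1 at mitotic entry. CDK9, with cyclin T, forms P-TEFb, which releases paused RNA polymerase II, and much of it is held inactive by the 7SK RNA and HEXIM proteins. Cells that copy their DNA and fail to divide become polyploid, and such cells need the kinesins, kinetochores and checkpoint of the mitotic spindle to segregate extra chromosomes and centrosomes. Transcripts for that machinery rise from S phase to mitosis under E2F, B-Myb and FoxM1. The latter pair acts through the CHR element TTTGAA near start sites. CCAAT boxes were searched for separately.

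Promoters of genes that carry the main findings are shown first, as the 100 bases before the start site in RefSeq on GRCm38.p6, read 5′ to 3′ on the strand of the gene. For the mitotic kinase gene *Cdk1* (chr10:69352913-69353012, minus strand) and the spindle kinesin gene *Kif11* (chr19:37376282-37376381, plus strand), capitals mark TTTGAA and CCAAT on either strand:
Cdk1: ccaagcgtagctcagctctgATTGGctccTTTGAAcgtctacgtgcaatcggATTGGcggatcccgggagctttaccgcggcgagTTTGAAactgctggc
Kif11: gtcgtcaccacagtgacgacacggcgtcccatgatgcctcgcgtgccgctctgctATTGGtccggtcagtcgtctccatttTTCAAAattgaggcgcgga
For the guanylate-binding protein genes *Gbp3* (chr3:142559944-142560043, plus strand, the 1 of its 2 listed promoters that held the element in these bases) and *Gbp7* (chr3:142530236-142530335, plus strand) and the ubiquitin-like *Isg15* (chr4:156200819-156200918, minus strand), capitals mark GAAANNGAA, the core of the interferon-stimulated response element, on either strand:
Gbp3: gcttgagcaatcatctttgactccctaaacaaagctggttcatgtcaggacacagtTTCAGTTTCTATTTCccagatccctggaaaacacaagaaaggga
Gbp7: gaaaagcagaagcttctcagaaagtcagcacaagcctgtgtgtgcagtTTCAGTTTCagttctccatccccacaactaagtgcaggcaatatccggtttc
Isg15: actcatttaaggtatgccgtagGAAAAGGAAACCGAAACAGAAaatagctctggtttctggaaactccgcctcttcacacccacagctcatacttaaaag
For the cytoplasmic actin gene *Actg1* (chr11:120348496-120348595, minus strand), the transcription factor gene *Srf* (chr17:46556163-46556262, minus strand) and the immediate early gene *Zfp36* (chr7:28379229-28379328, minus strand), capitals mark the CArG box bound by serum response factor:
Actg1: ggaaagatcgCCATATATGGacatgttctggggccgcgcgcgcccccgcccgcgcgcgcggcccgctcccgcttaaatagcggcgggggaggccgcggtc
Srf: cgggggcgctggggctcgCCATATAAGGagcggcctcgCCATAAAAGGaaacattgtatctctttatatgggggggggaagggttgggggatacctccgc
Zfp36: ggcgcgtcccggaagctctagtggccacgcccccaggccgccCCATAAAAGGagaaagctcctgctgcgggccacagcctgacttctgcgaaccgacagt
These 8 promoters were chosen after the values were seen. A match to letters is a description of the sequence and not evidence of binding.

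A gene was tested where its summed count reached 30 in at least 1 of both 4N libraries, which held for 14183 of 55450 genes. It was called where the log2 ratio of CYC065 over vehicle lay beyond 1 in either direction and its counting interval excluded no change, with libraries scaled by the trimmed mean of M-values (TMM). By this rule 3669 genes, 25.9% of those tested, were called, 1941 of them higher (13.7%) and 1728 lower (12.2%) after CYC065. The interval removed no gene, since the log2 cut alone gave the same 1941 and 1728 calls. A call is therefore in effect a cut on the ratio between both libraries. The median gene had a log2 ratio of -0.06, and the 25th and 75th percentiles were -0.59 and 0.52. Scaling by library size alone raised every log2 ratio by 0.17 and gave 2438 higher and 1229 lower calls, so that 66.5% rather than 52.9% of calls were higher. Words such as rose and fell below mean that a gene was called, and list shares are to be read against 13.7% and 12.2%. Where similar genes shared reads, counts were divided among them and are uncertain. This is said beside most such genes, and it also holds for *Ccnb1*, *Gas5*, *Kifc1*, *Ldha*, *Scd1*, *Srsf3* and *Top2a*.

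Several facts about the libraries move with treatment. Counts assigned to *Gm26917*, a noncoding gene, made up 1.39% of the vehicle 4N and 5.69% of the CYC065 4N library, while protein-coding genes made up 93.1% and 86.8%. Of the markers of other cell types, *Ptprc* had 0 and 1 counts, *Kdr* 1 and 2 counts, and both hemoglobin genes 0 counts in each library. The 5 immune markers summed to 233 and 1311 counts, of which *Cd68* made up 213 and 1280, and the 3 endothelial markers to 110 and 50, of which *Cdh5* made up 91 and 30. The line itself expressed mesenchymal rather than epithelial markers. *Vim* (vimentin) had 4925 and 2440 counts per 1000000 of the scaled library size (CPM) in vehicle and CYC065 4N cells, whereas the 5 epithelial markers (*Epcam*, *Cdh1*, *Krt8*, *Krt18* and *Krt19*) summed to 32 and 83 counts. The alveolar genes *Nkx2-1* and *Sftpc* and the club cell gene *Scgb1a1* had 0 counts in both.

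**Figure D1:**
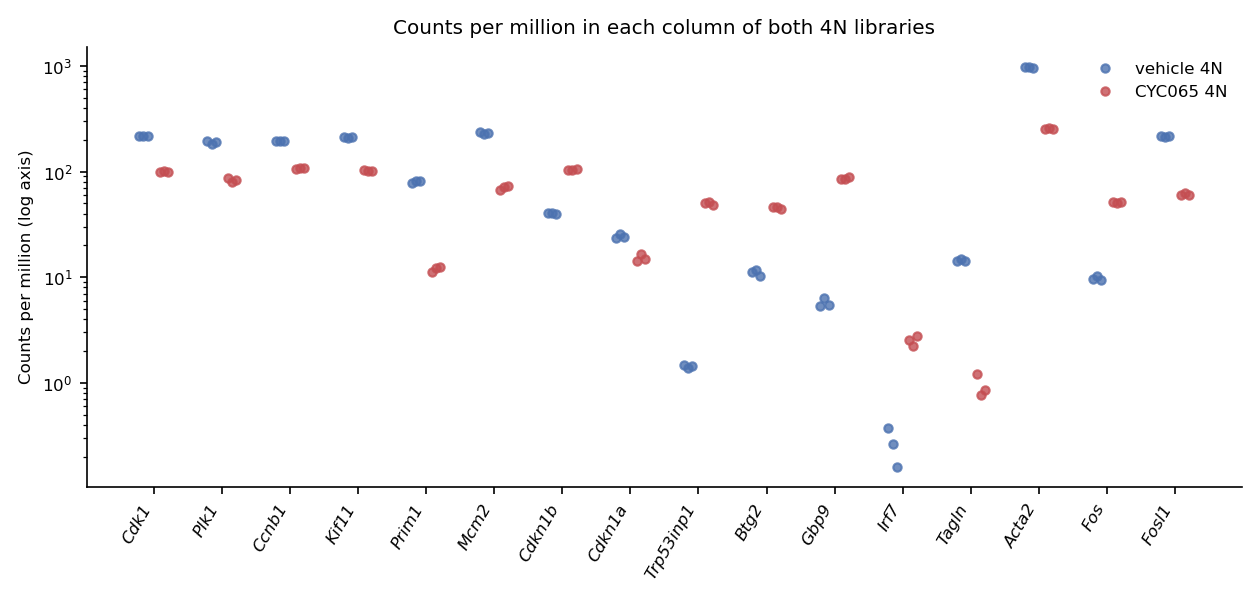
CPM, counts per 1000000 (log axis), of 16 genes in the 3 columns of the vehicle 4N library (blue) and of the CYC065 4N library (red), each point being 1 column. The 16 genes were picked for display and do not stand for all genes. Columns of a library lie close together because they are parts of it. That the columns of both libraries do not overlap for these 16 genes is therefore no replicate check.

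The direct targets of the drug came first. *Cdk2* had 2662 summed counts in vehicle and 2130 in CYC065 4N cells, a log2 ratio of -0.56 (-0.64 to -0.48), and *Cdk9* had 3777 and 3797 counts, a ratio of -0.23, so neither kinase gene was called. Of the 8 tested genes for both kinases and their cyclins, 3 fell and 0 rose. The S phase cyclins were those that fell: *Ccne2* from 2068 to 938 counts (-1.38), *Ccne1* from 3155 to 1655 counts (-1.17) and *Ccna2* (-1.05). Scaled by library size alone, 1 of the 8 was called. *Ccnt1*, which encodes the main cyclin partner of CDK9, went from 98.8 to 137 CPM and was not called (0.48).

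Regulators of P-TEFb moved little as a group, with 1 of 24 tested members higher, 1 lower and a median log2 ratio of 0.00. The called members were both inhibitors of elongation and moved in opposite directions. *Nelfe*, a subunit of the negative elongation factor that pauses RNA polymerase II, fell from 2525 to 530 counts (-2.49, -2.63 to -2.35). *Hexim2*, which encodes an inhibitor of P-TEFb, rose from 82 to 315 counts (1.70, 1.35 to 2.07), and its relative *Hexim1* had 1484 and 3010 counts (0.78) without being called. The 7SK RNA gene *Rn7sk* took 0.728% of the vehicle and 1.10% of the CYC065 4N library.

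Of 15 regulators of G1, 3 rose and 3 fell. *Ccnd1* (cyclin D1) fell from 42594 to 13996 counts (-1.84), *Cdk4* fell by 1.59 on the log2 scale, and *Rbl1*, which encodes the pocket protein p107, fell from 7458 to 2119 counts (-2.05). *Cdkn1b*, which encodes the CDK inhibitor p27, was counted 760, 773 and 753 times in the columns of vehicle and 2303, 2298 and 2347 times in those of CYC065 4N cells. Its log2 ratio was 1.37, and *Rbl2*, which encodes the related pocket protein p130, rose from 1165 to 2904 counts (1.08). *Cdkn1a*, which encodes p21, went the other way, with 449, 483 and 452 counts in vehicle columns and 319, 368 and 335 in CYC065 columns, yet its ratio of -0.68 (-0.79 to -0.56) was under the call.

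The E2F family and B-Myb control the transcription of cell cycle genes. Of 10 tested E2F and dimerization partner genes, 5 fell and 0 rose, with a median of -0.97. The activator *E2f1* fell from 3599 to 1724 counts (-1.30), and the atypical repressors *E2f7* and *E2f8* fell from 4153 to 2167 and from 3535 to 1925 counts. Of 8 members of the FoxM1, B-Myb and MuvB group, *Mybl2* fell from 7581 to 2493 (-1.84) and *Foxm1* from 14619 to 5915 (-1.54), and the MuvB core members did not pass. Counts of both genes include reads divided among similar sequences and are uncertain for that reason.

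Genes of DNA synthesis, many of them E2F targets, came next. Of 51 tested genes of replication licensing and synthesis, 29 fell (56.9%) and 0 rose, and the median was -1.06. *Prim1*, the catalytic subunit of primase, was counted 1489, 1530 and 1531 times in vehicle columns and 252, 274 and 276 times in CYC065 columns (-2.74, -2.85 to -2.63). *Tk1* (thymidine kinase) fell from 8178 to 1585 counts (-2.61), the helicase gene *Mcm2* from 13166 to 4704 (-1.72), the licensing gene *Cdc6* from 3296 to 1532 (-1.34) and the sliding clamp gene *Pcna* from 20204 to 9826 (-1.28, with divided reads). In the promoters of 42 matched members, 8 of 52 windows of 300 bases held the E2F site TTTCCCGC on either strand (15.4%), against 1.07% of all 32851 promoters.

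Repair of replicated DNA followed the same direction. Of 37 tested genes of homologous recombination and the Fanconi pathway, 13 fell (35.1%) and 0 rose, with a median of -0.83. *Fanca*, a core subunit of the Fanconi ubiquitin ligase, fell from 2844 to 821 counts (-2.03) and *Fancf* from 443 to 142 (-1.88). *Brca1* had 4847 and 4693 counts (-0.28) and was not called.

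Replication-dependent histone genes, whose messages are made in S phase, fell in 20 of 63 tested members (31.7%) and rose in 2. Counts of 58 of the 63 are divided among near-identical copies, so single members are uncertain. *Hist1h4a* fell from 84.9 to 24.4 CPM (-1.80), and the summed level of all list members went from 1304 to 663 CPM. *Hist2h2be*, which was counted in whole reads, rose from 44 to 140 counts (1.43, 0.93 to 1.95). None of the 20 that fell had whole counts. Among replication-independent variants, *H2afx*, whose product is phosphorylated at DNA breaks, fell from 95.1 to 33.0 CPM (-1.53, divided reads) and *H1f0*, a linker histone of nondividing cells, had 209 and 256 CPM (0.29).

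In the mitotic lists 0 members rose, and the share that fell ranged from near that of all genes to well above it. Of 19 genes of mitotic entry, 4 fell (21.1%). *Cdk1* was counted 4084, 4066 and 4134 times in vehicle columns and 2200, 2241 and 2223 times in CYC065 columns, 217 and 99.6 CPM, with a log2 ratio of -1.12 (-1.16 to -1.08). *Haspin*, a histone H3 kinase of mitotic chromosomes, fell most, from 1972 to 789 counts (-1.56), followed by the centrosomal kinase gene *Nek2* from 5689 to 2916 (-1.20) and *Plk1* from 10666 to 5576 (-1.17, divided reads). *Ccnb1* (cyclin B1), with 196 and 108 CPM (-0.86), and *Aurka*, with 9471 and 6522 counts (-0.78), were under the call.

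Kinetochore and spindle checkpoint genes were called more often, 15 of 39 having fallen (38.5%). *Cenpn*, which encodes a reader of centromeric chromatin, fell from 1702 to 572 counts (-1.81), *Zwilch*, a part of the RZZ checkpoint complex, from 2828 to 1163 (-1.52), and the kinetochore motor gene *Cenpe* from 16685 to 7891 (-1.32). The checkpoint kinases parted: *Bub1* fell from 9136 to 5122 counts (-1.07), whereas *Bub1b*, which encodes BubR1, had 8980 and 9337 counts (-0.18). For the anaphase-promoting complex (APC/C), the E2 enzyme gene *Ube2c* fell from 9526 to 3041 counts (-1.89) and the inhibitor gene *Fbxo5*, which encodes EMI1, from 2237 to 997 (-1.40). In all 5 of 21 members of that list fell, and the activator gene *Cdc20* had 143 and 74.7 CPM (-0.93).

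All 14 mitotic kinesin genes had log2 ratios below 0, from -1.32 to -0.37, and 5 were called (35.7%). *Kif15*, which encodes a kinesin that can take over from Eg5, fell from 4529 to 2296 counts (-1.22). *Kif11*, which encodes Eg5 itself, was counted 4013, 3901 and 4023 times in vehicle columns and 2301, 2264 and 2284 times in CYC065 columns (-1.04). *Kif2c*, a microtubule depolymerase, and *Kifc1*, which clusters extra centrosomes, had ratios of -0.78 and -0.37 and were not called. For cytokinesis, 3 of 23 genes fell (13.0%, beside 12.2% of all genes), with *Birc5* (survivin) from 6837 to 3484 counts (-1.21) and *Kif23* from 9429 to 5126 (-1.12). Of 17 centriole genes 2 fell (11.8%), and of 20 condensin, cohesin and topoisomerase genes 2 fell, also a share under that of all genes, *Ncapd3* (-1.10) and *Top2a* (-1.07).

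These mitotic calls sat near the threshold. Scaled by library size alone, 9 of 39 kinetochore genes, 2 of 14 kinesin genes and 1 of 23 cytokinesis genes were called, and *Cdk1* (-0.95), *Kif11* (-0.87), *Bub1* (-0.90) and *Top2a* (-0.90) were not. *Kif11* was also under the call when vehicle column 1 or 3 was left out, at -0.99 and -0.98. The CHR element marked in *Cdk1* and *Kif11* above was found in 10 of 14 kinesin promoters (71.4%), 11 of 18 cytokinesis promoters (61.1%), 6 of 14 mitotic entry promoters (42.9%) and 15 of 40 kinetochore promoters (37.5%), against 17.9% of all promoters. CCAAT was found in 10 of 14 mitotic entry promoters (71.4%), against 37.4% of all.

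**Figure D2:**
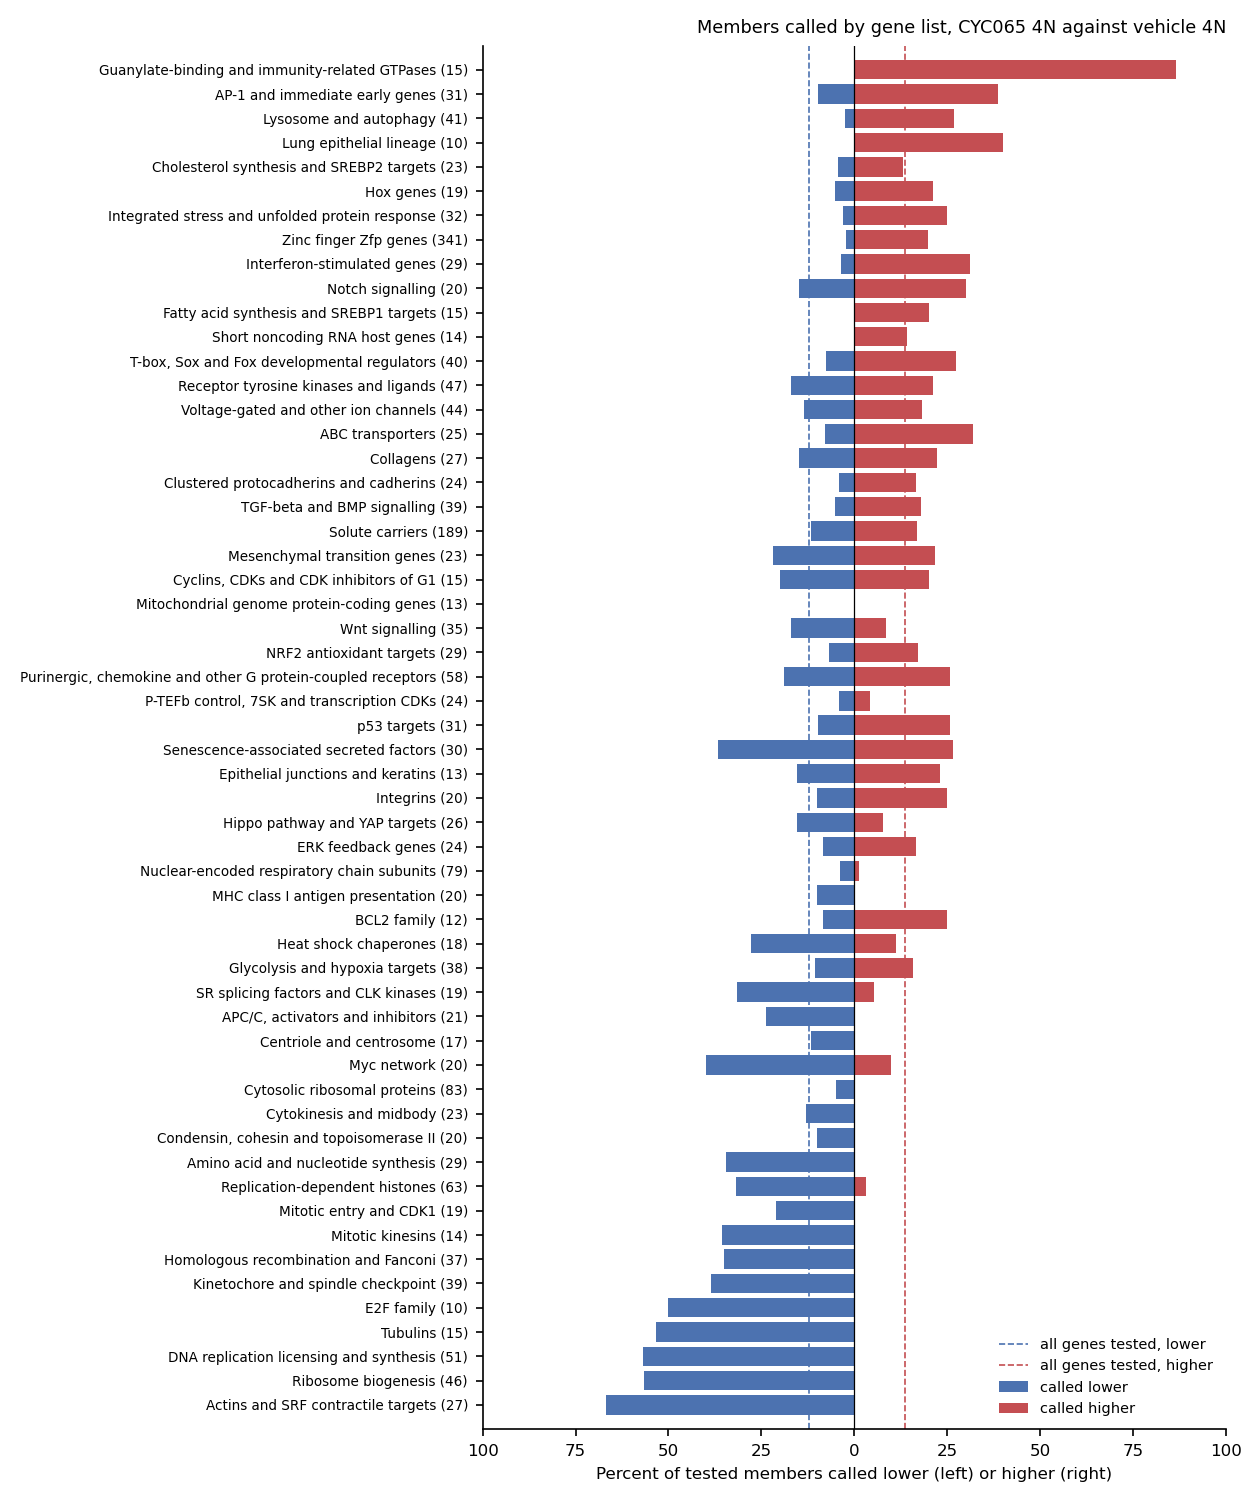
Percent of tested members called lower (blue, left) and higher (red, right) in CYC065 against vehicle 4N cells, for each gene list with at least 10 tested members (number in parentheses), ordered by median log2 ratio. Dashed lines show all tested genes, 12.2% lower and 13.7% higher. Guanylate-binding genes, with 13 of 15 higher, and actin genes, with 18 of 27 lower, stand at the ends.

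Transcripts of cytoskeletal genes fell beyond those of the spindle. Of 27 tested actin genes and contractile targets of serum response factor (SRF), 18 fell (66.7%), 0 rose and all 27 had log2 ratios below 0. With library size scaling 13 of the 27 fell. *Tagln*, which encodes the actin-binding protein transgelin (chromosome 9, 45929619 to 45936058 on mm10), was counted 271, 284 and 272 times in vehicle columns and 27, 17 and 19 times in CYC065 columns (-3.95, -4.35 to -3.58). The tropomyosin gene *Tpm2* fell from 6235 to 997 counts (-2.88), and smooth muscle actin, *Acta2*, from 972 to 256 CPM (-1.92, divided reads). *Actb* went from 12990 to 4838 CPM and *Actg1* from 4860 to 1557 CPM, log2 ratios of -1.43 and -1.64, also with divided reads. *Srf* itself, a member of the list, fell from 9093 to 3760 counts (-1.51). CArG boxes were found in 7 of 29 promoters of the list (24.1%), against 1.63% of all. The list was drawn up to hold SRF targets, so a high share follows in part from that choice. Any part of *Srf* in these falls was not tested.

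Tubulin genes fell in 8 of 15 cases and rose in 0, with *Tuba1b* from 2080 to 525 CPM (-1.99) and *Tubb4b* from 348 to 107 CPM (-1.70), both with divided reads. YAP is a coactivator that responds to actin tension. Of 26 Hippo pathway genes and YAP targets, 2 rose (7.69%) and 4 fell (15.4%), beside 13.7% and 12.2% of all genes. The list symbols *Ctgf* and *Cyr61* matched no gene under those names. The classical target *Ankrd1* fell from 17098 to 4799 counts (-2.07) and the receptor kinase gene *Axl* from 62083 to 22073 (-1.73), while *Tgfb2* rose from 629 to 2934 (1.98) and *Yap1* itself had 362 and 397 CPM (0.13). Of 9 laminin genes 3 fell, among them *Lama3* from 187 to 34 counts (-2.70), which was the 1 call where 100 counts were required.

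Genes of cell growth fell as a second large block. Of 46 ribosome biogenesis genes, 26 fell (56.5%), 0 rose and all had ratios below 0, with a median of -1.15. The nucleolar protein gene *Nop16* fell from 1724 to 341 counts (-2.58), *Rrp9*, which acts with the U3 RNA, from 3699 to 1111 (-1.97), and *Polr1a*, the largest subunit of RNA polymerase I, from 12933 to 6922 (-1.14). Of 29 genes of amino acid and nucleotide synthesis 10 fell and 0 rose, led by the purine enzymes *Gart*, from 8728 to 2880 counts (-1.84), and *Pfas*, from 13467 to 4835 (-1.72).

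The Myc network was lower in 8 of 20 members and higher in 2. *Myc* itself had 147 and 252 CPM (0.78) and was not called, and its target *Cad*, the first enzyme of pyrimidine synthesis, fell from 21818 to 8752 counts (-1.56). Both members that rose encode MAX partners that oppose Myc: *Mxd4* from 732 to 6288 counts (2.86, 2.75 to 2.98) and *Mxd1* from 340 to 911. Cytosolic ribosomal protein genes had ratios below 0 in 82 of 83 cases with a median of -0.52, yet only 4 were called, and reads of 79 were divided among copies. The largest of these falls was in *Rpl7l1*, a paralog counted in whole reads, from 9834 to 2728 (-2.09).

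Splicing and mitochondrial import were also represented. Of 19 SR splicing factor and CLK kinase genes 6 fell and 1 rose. *Srsf2* fell from 21335 to 7504 counts (-1.75), *Srsf1* from 30990 to 12140 (-1.59) and *Srsf3* from 351 to 130 CPM (-1.44), whereas the kinase gene *Clk1*, which phosphorylates SR proteins, rose from 1529 to 3734 counts (1.05). When genes were grouped by the letters of their symbols into 152 families of at least 10 tested members, the highest shares of falls were in *Srsf* (6 of 10), *Mcm* (5 of 10) and the mitochondrial translocase family *Timm* (7 of 14). Mitochondrial ribosomal *Mrpl* genes fell in 17 of 49 cases. Of 79 nuclear-encoded respiratory chain genes only 3 fell and 1 rose, and of 13 protein-coding genes of the mitochondrial genome 0 were called.

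Among genes that rose, a group of interferon-inducible GTPases had the highest share, 13 of 15 tested members (86.7%) with 0 lower and a median of 2.52. Where 100 counts were required in 1 library, 8 of 10 rose and 0 fell, with a lower median. That floor could be met by the CYC065 library alone, as it was for *Gbp11* below. The stricter filter is therefore no independent check on the share that rose. Guanylate-binding proteins (GBPs) and immunity-related GTPases attack the membranes around intracellular pathogens. *Gbp9* (chromosome 5, 105077630 to 105139539 on mm10) went from 326 to 5780 summed counts (3.91, 3.75 to 4.08). *Gbp11* rose from 2 to 185 counts (6.29, 4.42 to 9.35), and *Gbp3* from 28 to 72 (1.12, 0.48 to 1.81), while *Gbp2* had 521 and 695 counts (0.18). Reads of 12 of the 15 are divided among these clustered and similar genes, and among the 3 with whole counts only *Gbp3* was called.

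Of 29 other interferon-stimulated genes 9 rose and 1 fell, and among the 22 with whole counts 7 rose. *Irf7*, a transcription factor that amplifies the interferon response, was counted 7, 5 and 3 times in vehicle columns and 57, 50 and 62 times in CYC065 columns (3.26, 2.49 to 4.12). *Zbp1*, a sensor of Z-form nucleic acid, rose from 17 to 108 counts (2.43) and *Isg15* from 21 to 127 (2.36). Of 20 genes of class I antigen presentation 0 rose and 2 fell, *Psmb10* (-1.76) and *Erap1* (-1.56), a proteasome subunit and a peptidase. The response element shown above was found in 8 of 9 GBP and GTPase promoters (88.9%) and 8 of 25 other interferon-stimulated promoters (32.0%), against 8.56% of all, with 8 of 15 and 21 of 29 genes matched.

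Immediate early genes rose in 12 of 31 cases (38.7%) and fell in 3. *Fos* was counted 181, 194 and 177 times in vehicle columns and 1156, 1124 and 1139 times in CYC065 columns (2.39, 2.26 to 2.52). The orphan receptor genes *Nr4a3* (40 to 342 counts, 2.86) and *Nr4a2* (652 to 4278 counts, 2.48) and the RNA-decay factor gene *Zfp36* (353 to 2017 counts, 2.28) rose with it. The growth-associated family member *Fosl1* fell from 12258 to 4070 counts (-1.83), so AP-1 genes did not move together, and *Jun* (0.17) and *Egr1* (0.83) were not called. CArG boxes were found in 6 of 30 promoters of this list, from 24 matched genes. These promoters belonged only to *Zfp36*, *Srf* and *Egr2*, several being overlapping windows of *Egr2*. *Srf*, also a member of this list, fell.

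ERK feedback genes were called in 6 of 24 cases, 4 higher (16.7%) and 2 lower (8.33%), near the 25.9% called over all genes. With library size scaling 0 of them were lower. The phosphatase gene *Dusp1* rose from 1369 to 4044 counts (1.32) and the inhibitor gene *Spry1* from 707 to 2255 (1.44), whereas *Dusp5* fell (-1.11) and *Dusp6* had 71.6 and 108 CPM (0.59).

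The p53 list had a median of 0.00, with 8 of 31 members higher and 3 lower. The largest rise was in *Trp53inp1*, which encodes a p53- and stress-inducible regulator of autophagy and cell death (chromosome 4, 11156431 to 11174379 on mm10), with 28, 26 and 27 counts in vehicle columns and 1118, 1148 and 1082 in CYC065 columns (5.13, 4.81 to 5.47). *Gadd45a* rose from 230 to 1660 counts (2.61), *Sesn2* from 386 to 2501 (2.46) and the antiproliferative gene *Btg2* from 623 to 3048 (2.05). Other members of the list, *Mdm2* (-0.14), *Ccng1* (0.00) and *Cdkn1a* (-0.68), were under the call. The exonuclease gene *Aen* fell from 4258 to 1620 counts (-1.63).

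In the BCL2 family 3 of 12 tested members rose, a share above that of all genes, and 1 fell, a share below it. The BH3-only genes *Bmf* and *Bcl2l11*, which encodes BIM, rose from 16 to 568 counts (4.91, 4.20 to 5.73) and from 874 to 2742 counts (1.41), 2 of the 3 rises among 12 tested members. Of the survival genes, *Bcl2l2* fell (-1.05, divided reads), *Mcl1* had 214 and 160 CPM (-0.42) and *Bcl2l1* 81.1 and 84.0 CPM (0.05). The fall of *Bcl2l2* did not pass under library size scaling (-0.88) or without vehicle column 3 (-0.97).

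Stress responses were uneven. Of 32 genes of the integrated stress and unfolded protein responses, 8 rose and 1 fell. That one was *Atf4*, the central factor of the integrated stress response, from 465 to 227 CPM (-1.03), while genes regarded as its targets rose, among them the cystine carrier *Slc7a11* from 261 to 1868 counts (2.60), *Ddit3*, which encodes CHOP, from 8.20 to 24.1 CPM (1.55, divided reads) and *Atf3* from 176 to 862 counts (2.05). The fall of *Atf4* did not pass under library size scaling (-0.86) or without any 1 vehicle column (-0.99 to -0.98). The chaperone gene *Hspa5* had 513 and 665 CPM (0.38).

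Among heat shock chaperones, inducible *Hspa1a* rose from 1.76 to 7.86 CPM (2.16) and *Hspa1b* from 4.34 to 21.6 CPM (2.32), whereas the abundant chaperones *Hsp90aa1* (2001 to 794 CPM, -1.33) and *Hspa8* (1868 to 786 CPM, -1.25) fell, all 4 with divided reads. In all 2 of 18 rose (11.1%, under the share of all genes) and 5 fell. With library size scaling 2 fell, and among the 9 members with whole counts 0 rose and 1 fell. Of 29 antioxidant targets of NRF2, 5 rose and 2 fell, with *Hmox1* (heme oxygenase) from 1190 to 5449 counts (1.96), *Nqo1* from 455 to 1401 (1.38) and glutathione reductase, *Gsr*, from 10840 to 5094 (-1.33).

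Lysosome and autophagy genes rose in 11 of 41 cases (26.8%) and fell in 1, with a median of 0.72. *Gla*, a lysosomal galactosidase, rose from 1679 to 6985 counts (1.82), *Mitf*, a factor of the family that drives lysosomal genes, from 422 to 1645 (1.72), and the protease gene *Ctsd* from 279 to 599 CPM (1.10, divided reads). *Ctsb*, with 419 and 754 CPM (0.85), and *Lamp1*, with 907 and 924 CPM (0.03), were not called.

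Lipid synthesis genes had few calls. Of 23 cholesterol synthesis genes 19 had ratios above 0, 3 rose and 1 fell. *Hmgcs1*, an early enzyme of the pathway, rose from 2559 to 7649 counts (1.34). Of 15 fatty acid genes 3 rose and 0 fell, with *Acacb* from 60 to 487 counts (2.78) and *Scd1* from 252 to 558 CPM (1.15), while *Fasn* had 676 and 499 CPM (-0.44). Glycolysis and hypoxia targets were mixed, 6 of 38 higher and 4 lower. The stress-inducible mTORC1 inhibitor gene *Ddit4* rose from 214 to 3079 counts (3.61), and the lactate carrier gene *Slc16a3* (32026 to 8677 counts, -2.12) and *Ldha* (1133 to 506 CPM, -1.16) fell.

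Secreted factors of the senescence-associated secretory phenotype did not move one way, with 8 of 30 higher and 11 lower. The protease inhibitors *Serpinb2* (1050 to 89 counts, -3.80) and *Timp1* (16167 to 2046, -3.22) fell, as did the chemokine gene *Ccl2* from 1823 to 658 (-1.71). *Il6* rose from 13 to 57 counts (1.89, 1.01 to 2.89), *Cxcl1* from 489 to 1171 (1.02), *Igfbp7* from 195 to 957 (2.06) and *Hgf* from 231 to 1460 (2.42, divided reads). With at least 100 counts required, 5 of 24 were higher and 9 lower.

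Extracellular proteases rose beside these. By symbol family, the 2 highest shares of rises were in *Adamts*, 6 of 11 tested, and *Mmp*, 7 of 13, and *Mmp2*, a gelatinase, went from 9933 to 40609 counts (1.79, 1.76 to 1.83). *Mmp9* was the 1 member of its family that fell. Among 27 collagen genes 6 rose and 4 fell, or 3 and 4 where 100 counts were required, led by *Col11a2* (48 to 443 counts, 2.97) and *Col5a3* (385 to 27 counts, -4.07). Of 20 integrin genes 5 rose and 2 fell, with *Itgb8*, which encodes a chain of a receptor that activates TGF-β, from 498 to 4656 counts (2.99) and *Itga3* from 28434 to 12756 (-1.39).

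Of 23 mesenchymal transition genes 5 rose and 5 fell, with the crosslinking enzyme gene *Loxl1* up from 433 to 2585 counts (2.34), and *Fn1* at 9012 and 6801 CPM (-0.41) and *Cdh2* at 155 and 117 CPM (-0.40). *Vim* was called lower at -1.01 and was under the call at -0.84 with library size scaling. Of 13 epithelial genes tested, out of 39 in the list, 3 rose and 2 fell, or 0 and 2 where 100 counts were required, and *Krt80* fell from 2459 to 320 counts (-3.18). Of 10 tested lung lineage genes 4 rose, among them the alveolar type 1 markers *Ager* from 22 to 279 counts (3.43) and *Hopx* from 80 to 373 (1.98). Of the wider fibroblast and pericyte list 2 of 9 rose, the receptors *Pdgfra* (337 to 817 CPM, 1.28) and *Pdgfrb* (110 to 252 CPM, 1.19), in a line that expressed them before treatment. *Cd68*, listed as an immune marker and also a lysosomal glycoprotein, rose from 213 to 1280 counts (2.35), and no part of other cells in this was tested.

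Signalling ligands and receptors gave rises and falls in the same pathways. In TGF-β and BMP signalling 7 of 39 rose and 2 fell, with *Bmp4* from 55 to 323 counts (2.32) and the inhibitory *Smad7* from 4877 to 2294 (-1.33). In Notch signalling 6 of 20 rose and 3 fell, *Notch3* rising from 221 to 858 counts (1.72) and *Notch4* falling from 431 to 96 (-2.40). In Wnt signalling 3 of 35 rose and 6 fell, a balance that turned to 5 and 3 with library size scaling and to 6 and 4 without vehicle column 3, and *Lgr6*, an R-spondin receptor, fell from 503 to 35 counts (-4.08). Among receptor tyrosine kinases and their ligands 10 of 47 rose and 8 fell. The EGF receptor ligands *Hbegf* (6098 to 1767 counts, -2.03) and *Areg* (196 to 39 counts, -2.57) fell, and *Egfr* had 102 and 137 CPM (0.43).

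Large families of transporters, receptors and transcription factors held many single changes. Of 341 *Zfp* zinc finger genes 68 rose (19.9%) and 8 fell (2.35%), with a median of 0.43, and *Zfp773* rose from 11 to 202 counts (3.96). Of 189 solute carriers 32 rose and 22 fell, or 19 and 21 where 100 counts were required. Among those named by rule were *Slc10a6*, a steroid sulfate carrier (14 to 433 counts, 4.71), and *Slc16a6* (246 to 45 counts, -2.69). Of 25 ABC transporters 8 rose and 2 fell, and the drug efflux gene *Abcb1b* fell from 6484 to 1004 counts (-2.93, divided reads). Of 58 G protein-coupled receptors 15 rose and 11 fell, and of 44 ion channel genes 8 rose and 6 fell, or 3 and 4 where 100 counts were required. Sox, Fox and T-box genes rose in 11 of 40 cases and fell in 3, with *Foxc1* from 773 to 2819 counts (1.63) and *Sox5* from 20 to 116 (2.30). Hox genes rose in 4 of 19 cases and fell in 1, and clustered protocadherins and cadherins rose in 4 of 24 and fell in 1. Of 14 host genes of small RNAs 2 rose, with *Gas5* at 54.2 and 75.9 CPM (0.48).

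A ranking by ratio with a count floor on the higher library only favors genes near silence in the other library. The 10 largest rises were taken from genes counted in whole reads, with a gene symbol that is not a provisional model name, whose higher library held 100 counts or more. Of these, 9 had 1 to 4 counts in vehicle 4N cells. *Tmem132b*, a transmembrane protein gene, went from 2 to 386 counts (7.35, 5.49 to 10.41), *Mroh2a* from 4 to 359 (6.25) and the scaffold gene *Disc1* from 4 to 173 (5.20). *Ccdc106*, *Baiap3*, *Diras1* and the mucin gene *Muc2* had 1 count in vehicle and 173, 161, 149 and 125 counts in CYC065 4N cells. *Abcc12* went from 2 to 115 counts (5.61) and *Ccdc170* from 3 to 134 (5.24, 3.66 to 7.54). Only *Trp53inp1* among the 10 was above that range in vehicle cells.

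The 10 largest falls were taken by the same rule. The orphan receptor gene *Gpr149* fell from 252 to 10 counts (-4.89, -5.97 to -3.99) and the purinergic receptor gene *P2ry12* from 172 to 7 (-4.86, -6.19 to -3.78). *Lgr6*, *Col5a3*, *Tagln* and *Serpinb2*, given above, came next. The kallikrein gene *Klk10* fell from 184 to 17 counts (-3.67), *Baalc* from 153 to 16 (-3.50), cardiac troponin T, *Tnnt2*, from 383 to 41 (-3.46) and the complement receptor gene *C3ar1* from 289 to 31 (-3.46).

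**Figure D3:**
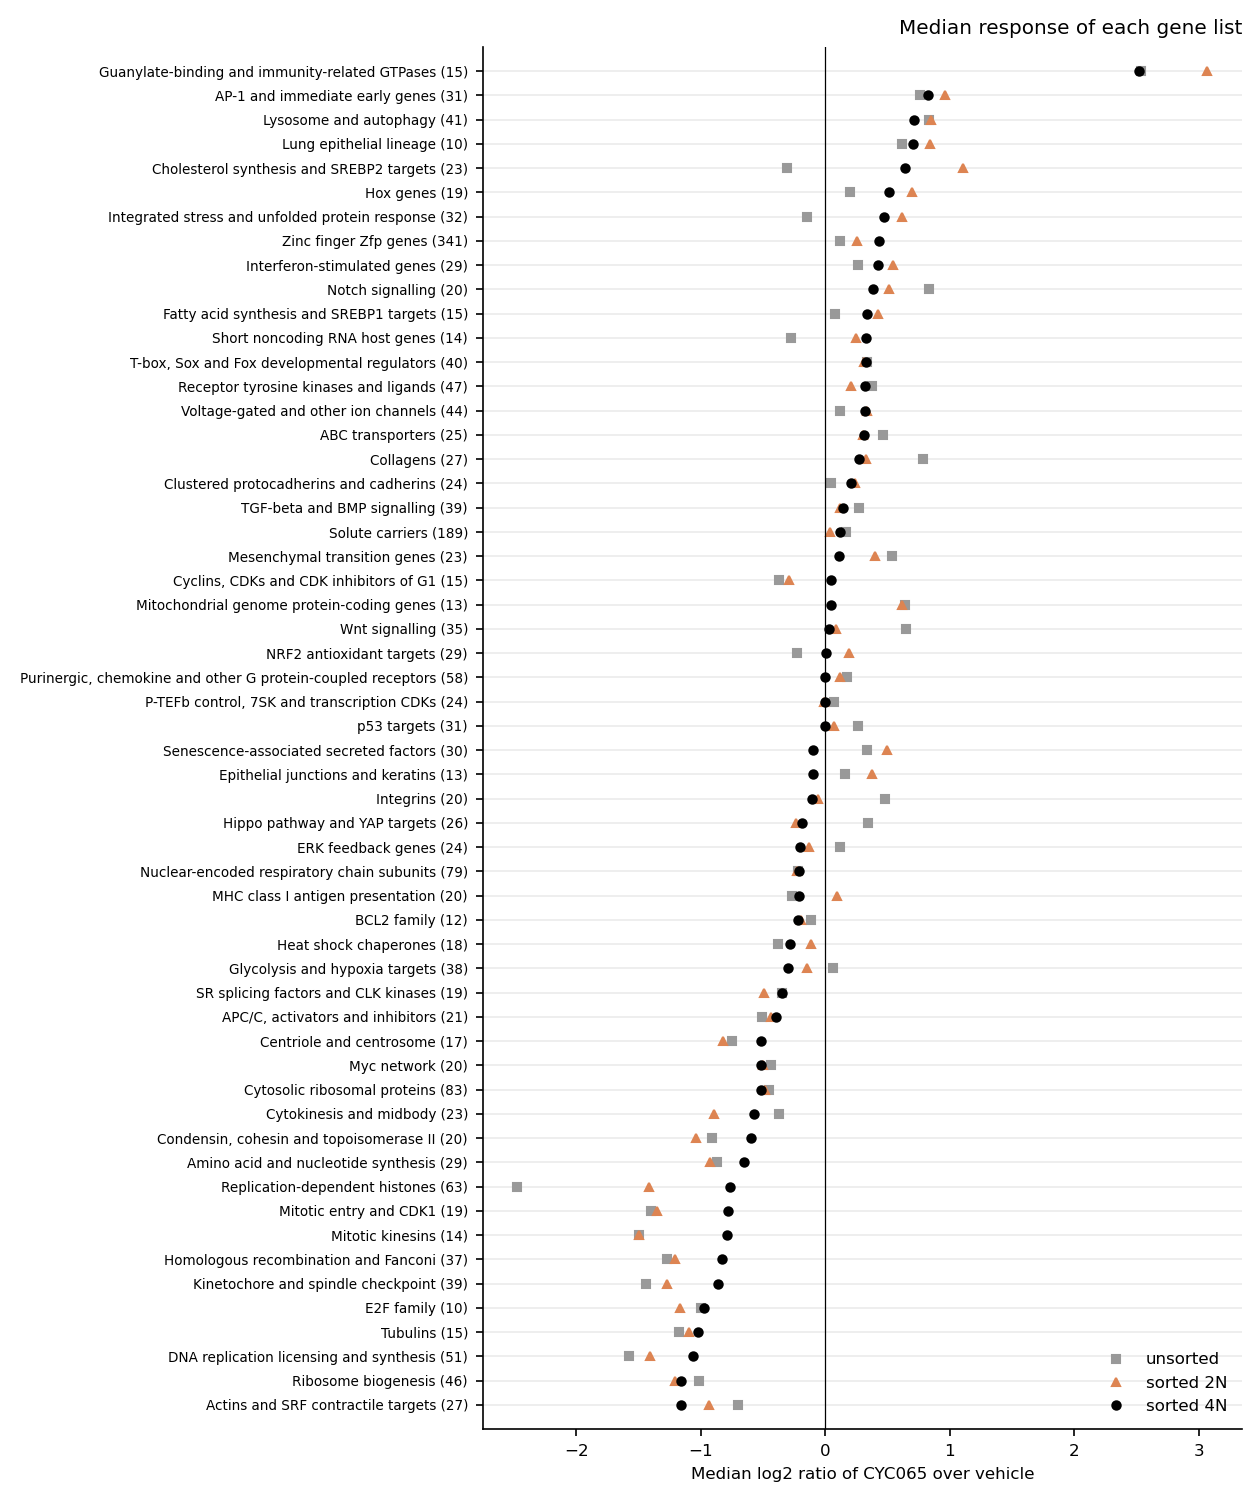
Median log2 ratio of CYC065 over vehicle for the same lists in sorted 4N cells (black circles), sorted 2N cells (orange triangles) and unsorted cells (grey squares), in the same order. Mitotic kinesins lie at -0.79 in 4N and -1.49 in 2N cells, and replication-dependent histones at -0.77, -1.42 and -2.47 in 4N, 2N and unsorted cells.

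Responses in 4N cells were set beside those of the other preparations. Of the 1941 genes higher in 4N cells, 1395 were also higher in 2N cells and 978 in unsorted cells, and of the 1728 lower, 1345 and 1100 were. In 7 cases a gene called in 4N cells was called the opposite way in 2N cells. The difference between both responses was called by the same rule, beyond 1 on the log2 scale with a counting interval that excluded 0, for 780 of 14482 genes (5.39%), of which 416 had the higher and 364 the lower response in 4N cells. Of 922 genes called in 4N and not in 2N cells, 206 had a called difference. *Cdk1* (-1.12 in 4N, -1.59 in 2N), *Kif11* (-1.04 and -1.87) and *Top2a* (-1.07 and -2.02) had smaller falls in 4N cells, and for none of these 3 was the difference called. Of the 19 mitotic entry, 14 kinesin and 39 kinetochore genes, 0, 0 and 1 had a called difference, with median differences of 0.51, 0.66 and 0.50 against 0.02 over all genes.

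Called differences were concentrated by gene type. Of the 416 genes with the higher response in 4N cells, 205 were TEC or sense intronic features and 106 were protein-coding. TEC is the GENCODE label for features whose transcript awaits experimental evidence, and many lie within introns or between genes. In 4N cells 230 of 633 TEC features rose (36.3%) and 18 fell, with a median of 0.76 beside 0.13 in 2N cells. Per 1000000 counts of the unscaled library they summed to 715 in vehicle 4N, 1112 in CYC065 4N, 944 in vehicle 2N and 1049 in CYC065 2N cells, so the vehicle 4N library was the lowest of the sorted libraries. Of the 633, 67.9% had under 100 counts in both 4N libraries. The part of unspliced RNA or DNA in these counts was not tested.

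Named genes with a called difference mostly had the lower response in 4N cells. *Ccl2* was lower by 1.16, with a log2 ratio of -1.71 in 4N and -0.55 in 2N cells. Of the 30 secreted factors 8 had a called difference, all lower in 4N cells, and the median of the list was -0.09 in 4N and 0.50 in 2N cells, though the sign in 4N cells turned to 0.08 under library size scaling. *Tagln* and 2 other actin or SRF target genes also had called differences, all lower. For *Notch* signalling, the effector gene *Hes1* had a ratio of -0.65 in 4N and 0.38 in 2N cells.

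**Figure D4:**
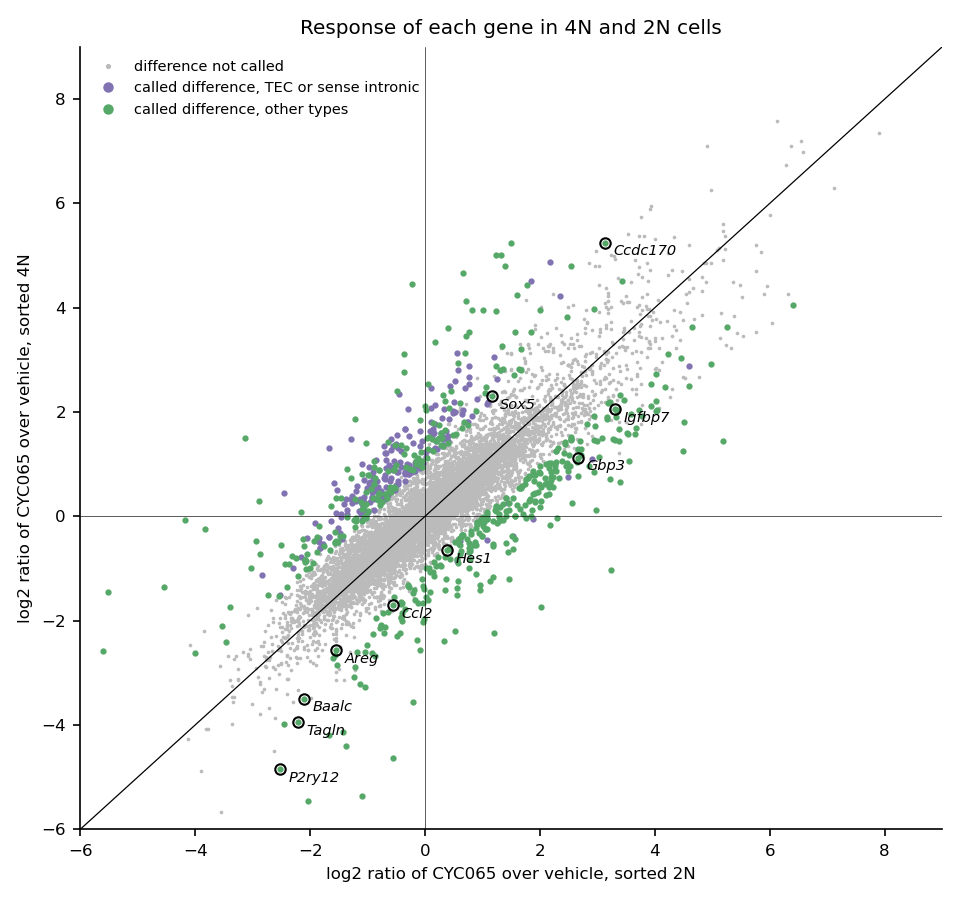
Log2 ratio of CYC065 over vehicle in sorted 4N (vertical) against sorted 2N cells (horizontal), each point being 1 gene. Grey points have no called difference, purple points are TEC or sense intronic features and green points other genes with a called difference, and circles mark the 10 named genes with one. Of 780 called genes, 416 lie above the diagonal of equal response and 364 below it.

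Calls also varied with gene structure. Protein-coding genes spanning under 5 kb fell in 25.8% of 1331 cases and rose in 10.4%, with a median of -0.50. Those spanning over 200 kb fell in 5.93% of 523 cases and rose in 16.8%, with a median of 0.22, and the medians of the 4 classes between them lay in order of span. The same medians in 2N cells were -0.41 and 0.14, and in unsorted cells -0.51 and 0.34. By gene type, the share that rose was not tested between classes. It covered 98 of 286 lincRNA genes (34.3%) and 60 of 183 processed transcripts (32.8%), 1382 of 12107 protein-coding genes (11.4%), 3 of 33 snRNA genes (9.09%) and 0 of 10 scaRNA genes. *Neat1*, the RNA scaffold of paraspeckles, rose from 177 to 4020 CPM (4.50, chosen after its values were seen, with divided reads), and *Malat1*, a nuclear noncoding RNA, had 4676 and 6376 CPM (0.45).

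**Figure D5:**
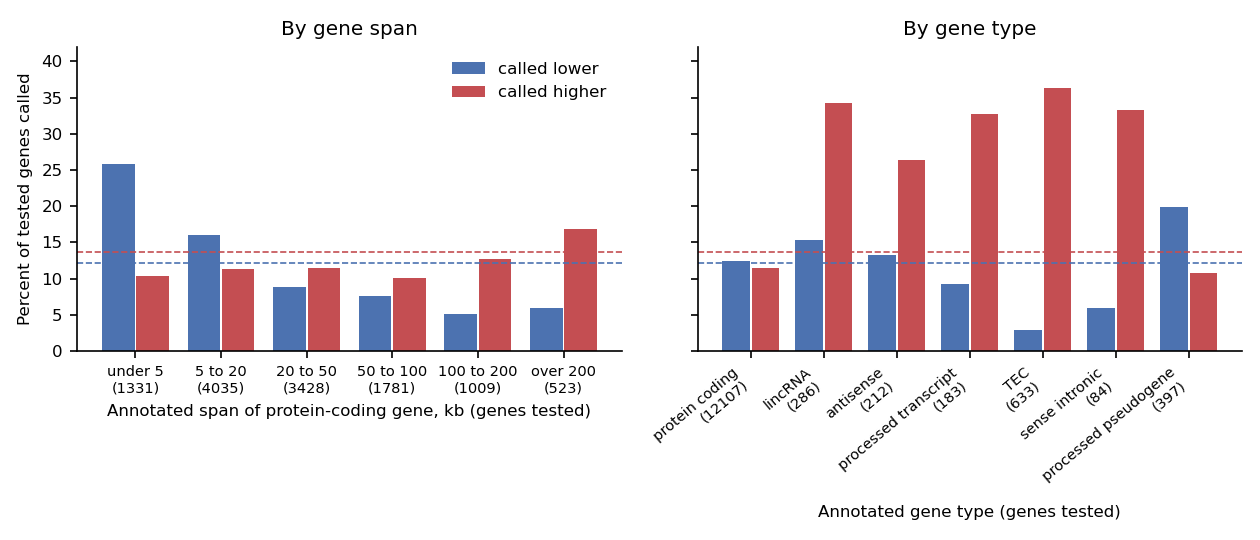
Percent of tested genes called lower (blue) and higher (red) in 4N cells, by annotated span of protein-coding genes (left) and by gene type (right), with the number tested in parentheses. Dashed lines show all tested genes. The share called lower goes from 25.8% in the shortest class to 5.93% in the longest.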

How the data were processed

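RNA-Seq of total RNA was analysed in 6 columns (2 groups of 3), with the 2N and unsorted groups for comparison. Per the labels and the study's methods, libraries were made with a stranded total RNA kit after ribosomal RNA depletion, trimmed with Cutadapt 1.18, aligned to mm10 with STAR 2.7.0f and counted on GENCODE M21 with RSEM, given as 1.3.1 in the submitters' processing notes, while the study's methods name a later release. Whether counting used strand is not given in the sources used here, so overlapping and antisense genes are uncertain. The deposited values are expected counts, which the authors neither normalized nor rounded. RSEM divides reads among similar genes, and 82.5% of tested genes had whole counts in every 4N column.

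The 3 columns of a group were summed. TMM factors were taken over the 4 sorted groups (edgeR 4.0.16, R 4.3.3), and CPM are counts per 1000000 of the scaled library size. A library at 0 was set to 3 counts. Ratios of summed counts carry exact binomial 95% intervals, and differences between responses carry Poisson intervals. As designed, the files' columns were checked first, and being parts of 1 library they were not used as replicates. The calculation was tested on simulated data. Other scalings, filters, left-out columns, edgeR and DESeq2 1.42.0 on rounded columns were tried.

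Named genes were fixed members of 64 lists, up to 2 called members per list and direction whose higher library held 100 counts or more, and the 10 largest changes per direction among such genes with whole counts and no provisional symbol. The members and lists were chosen with earlier results of these data known. Genes named outside this rule (*Btg2*, *Ccna2*, *Cdh5*, *Cdk4*, *Gbp7*, *Mmp9*, *Neat1*, *Rn7sk*, *Malat1*, *Gm26917*, and markers) were chosen after their values were seen. Promoters are RefSeq windows of 300 bases (250 before the start site), 32851 in all, searched on both strands. CArG and the other motifs were spelled as printed in the text. Several lists hold known targets of the factor whose motif was searched, so motif shares only describe the lists.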

Additional observations from a re-analysis of the deposited data

Results flagged for a closer look

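These results were flagged because the response to CYC065 differed between 4N and 2N cells by more than 1 on the log2 scale, with a counting interval that excluded 0. Over all genes 780 did so, 5.39% of those tested. The response was higher in 4N cells for *Ccdc170*, by 2.11 (3 and 134 counts in 4N cells), and for *Sox5*, by 1.13 (20 and 116 counts).

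It was lower in 4N cells for the other 8 named genes. The difference was -2.33 for *P2ry12*, -1.73 for *Tagln* and -1.39 for *Baalc*, all of which fell in both populations. It was -1.16 for *Ccl2*, which was called lower in 4N cells and not in 2N cells, -1.02 for *Areg*, which was called lower in both, and -1.03 for *Hes1*. For *Gbp3* and *Igfbp7*, which rose in both populations, the rise in 4N cells was smaller by 1.53 and 1.25 on the log2 scale, differences of -1.53 and -1.25. With 1 library per group, spread between cultures was not measured for any of them, and the part of other cell types was not tested.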

How the results depend on the processing

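With 1 library per group, no culture-level spread was measured. If cultures varied with a coefficient of 0.1 or 0.2, edgeR would call 1911 higher and 1721 lower, or 1520 and 1405, rather than 1941 and 1728. Requiring 100 counts in 1 library left 1185 higher and 1490 lower calls (44.3% higher, against 52.9%), and requiring the whole interval beyond a log2 ratio of 1 left 1237 and 1259 (49.6% higher). With at least 100 counts in 1 of 4 libraries, 295 differences between 4N and 2N responses were called (130 higher, 165 lower) rather than 780 (416 and 364), so most called differences had under 100 counts in all 4. Leaving out 1 column gave 3385 to 3592 calls, 1659 to 2099 of them higher and 1491 to 1734 lower, and 721 to 756 differences, 364 to 432 higher and 318 to 366 lower.

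Treating the columns as replicates, edgeR called 2050 higher and 1567 lower, DESeq2 2063 and 1443, and edgeR with the replicate number as a block 2051 and 1567. The numbers did not pair the columns, since deviations of same-numbered columns correlated at 0.0465, -0.153 and -0.16. Columns of different numbers correlated at -0.0645 to 0.203. The highest of these were vehicle column 2 with CYC065 column 3 (0.203) and vehicle column 3 with CYC065 column 2 (0.171). What these correlations reflect was not tested. Of the values of single genes under alternatives, 2583 stayed on their side of the call, 46 lost it, 9 gained it and 0 reversed, and 24 of the losses came with library size scaling. Of the list counts, 1156 stayed and 102 moved by over 1.5 times, 29 of them under library size scaling. With whole counts only, calls of histones fell to 0 lower, those of GTPases to 1 of 3, and those of tubulins to 3 of 7.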
